A study of Mus musculus with 26 samples.

Results

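The epithelium of the proximal small intestine was compared 6 days after the start of tamoxifen between mice deleted for Smad1 and Smad5 together in the intestinal epithelium and control mice. The comparison took the 6 samples of that genotype and time, 3 labelled control and 3 labelled SMAD1/5 iDKO (inducible double knockout), out of the 26 samples of the series. All genes of their table were used. Of 16827 genes, the 10827 with an FPKM (fragments per kilobase of transcript and per megafragment of library) of at least 1 in 3 or more of the 6 libraries were tested. Both groups received tamoxifen, on 4 consecutive days by the protocol. The deletion was driven by Villin-CreERT2, a tamoxifen-activated recombinase expressed in intestinal epithelial cells, and controls given tamoxifen lacked that transgene, so Cre activity and the deletion cannot be told apart. The labels give neither the age of the mice nor the animal behind a library, and p-values measure the spread between these libraries.

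Bone morphogenetic proteins (BMPs) are secreted signals that bind paired receptor kinases on the cell surface. The receptors phosphorylate SMAD1, SMAD5 and SMAD9, which join SMAD4, enter the nucleus and regulate target genes, while the related TGF-beta and activin ligands use SMAD2 and SMAD3 with the same partner. In the small intestine BMP activity is known to be low in the crypt, where cells divide, and high on the villus, where enterocytes digest and absorb.

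Markers of enterocytes summed to 25147 to 30680 FPKM per library, and 8 of 9 fibroblast markers were under 1 FPKM in every library. Of 12 enterocyte markers 6 fell and 0 rose (median log2 -0.75), with 4 to 7 falls in every alternative and 2 rises under 4 of them, the replicate block included. Tuft cell markers (chemosensory cells) fell in 5 of 8 cases and rose in 0 (median -1.01). Their falls numbered 7 under both scalings and 2 without the filter, with the stricter filter, without control 1, control 2 or any iDKO library, or without both libraries numbered 2. Approximate depths were 20.9, 21.4 and 28.1 megafragments in control libraries 1 to 3 and 29.6, 30.3 and 27.7 in iDKO libraries 1 to 3. The libraries numbered 2 of both groups stood apart, since Paneth cell markers (antimicrobial cells of the crypt base) summed to 77.3 FPKM in control 2 and 110.3 in iDKO 2 against 3005 to 10134 in the other 4. Results below whose call ended without these 2 libraries are named. Smad1 was 9.07, 10.6 and 10.2 FPKM in control libraries 1 to 3 and 8.34, 9.2 and 10.2 in iDKO libraries 1 to 3 (log2 -0.10 ± 0.11, limma adjusted p = 0.5). Smad5 was 6.33, 5.83 and 5.69 against 13.1, 10.4 and 10.6 FPKM (log2 0.88 ± 0.12, limma adjusted p = 0.0041), higher in all 3 libraries labelled iDKO. Exons outside the deleted part are counted too, so these gene-level values do not check the deletion, and the group names rest on the labels.

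Limma called 1681 of the 10827 genes higher in the iDKO libraries (15.5%) and 894 lower (8.26%) at an adjusted p below 0.05. Of these, 353 rose (3.26% of genes tested) and 382 fell (3.53%) by more than 2-fold. The log2 change of the middle gene was 0.18, so list medians below are read beside that value, and list counts beside 15.5% higher and 8.26% lower. A count near those shares is no result about the list as a whole. With libraries centred on their medians the calls were 767 higher (7.08%) and 1193 lower (11%), and with quantile normalization 1117 higher (10.3%) and 1162 lower (10.7%), so that the share of calls that were higher went from 65.3% to 39.1% and 49%. Every log2 change is iDKO minus control of FPKM + 0.5, with its standard error from limma and 3 libraries per group. The replicate FPKM values are given for libraries 1 to 3 of the controls and then libraries 1 to 3 of the iDKO group. A gene under 1 FPKM in all controls passed the filter only through the iDKO libraries, so it could be called only as a riser. Of the genes described below, Anxa10, Sptssb, Clu, Btc, Phlda3, Dock4 and Slc4a11 entered in this way, and those in a list count as rises there. Klf15 and Bmp8b entered only through the controls and could be called only as falls.

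The best known readouts of BMP-activated SMADs are the Id genes, which encode inhibitors of DNA-binding helix-loop-helix factors, and Smad6 and Smad7, inhibitors of the pathway. The bases before the start sites of 2 Id genes, Smad6 and the transcription factor Klf15 are shown because these genes fell. Capitals mark GGCGCC, or both ends of the composite GNCGNC, 5 bases, GTCT, motifs known for BMP-activated SMAD complexes. The sequences are from RefSeq on GRCm38.p6, each the 250 bases before the start, at chr9:64022060-64022309, minus strand, for Smad6, chr12:25096093-25096342, minus strand, for Id2, chr4:136143572-136143821, plus strand, for Id3 and chr6:90462326-90462575, plus strand, for Klf15.
Smad6: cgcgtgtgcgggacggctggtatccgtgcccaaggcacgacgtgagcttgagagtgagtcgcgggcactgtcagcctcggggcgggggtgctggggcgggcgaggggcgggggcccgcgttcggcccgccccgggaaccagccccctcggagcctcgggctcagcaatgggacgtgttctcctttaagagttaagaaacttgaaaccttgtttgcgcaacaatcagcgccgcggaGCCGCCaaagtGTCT
Id2: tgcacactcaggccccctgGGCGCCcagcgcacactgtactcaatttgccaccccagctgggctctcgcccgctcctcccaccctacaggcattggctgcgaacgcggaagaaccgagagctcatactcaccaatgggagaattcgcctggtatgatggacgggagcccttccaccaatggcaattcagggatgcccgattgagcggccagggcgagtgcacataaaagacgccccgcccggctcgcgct
Id3: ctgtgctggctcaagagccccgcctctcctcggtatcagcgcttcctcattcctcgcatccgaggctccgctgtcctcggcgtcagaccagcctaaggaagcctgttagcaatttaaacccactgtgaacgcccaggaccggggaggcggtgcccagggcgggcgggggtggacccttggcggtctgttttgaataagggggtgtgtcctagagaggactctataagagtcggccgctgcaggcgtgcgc
Klf15: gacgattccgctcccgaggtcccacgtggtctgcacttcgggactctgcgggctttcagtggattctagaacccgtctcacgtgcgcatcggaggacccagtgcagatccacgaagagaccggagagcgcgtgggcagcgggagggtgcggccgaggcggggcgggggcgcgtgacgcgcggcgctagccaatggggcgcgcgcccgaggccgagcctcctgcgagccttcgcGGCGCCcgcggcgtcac
Among 8398 tested genes with a promoter of 300 bases (250 before and 50 after the start) in the RefSeq table, searched on both strands, 24.6% held GGCGCC and 1.27% the composite. The shares were 25.1% and 1.29% of genes that rose and 21.8% and 0.706% of genes that fell, and 16% and 0.333% of the 300 with a promoter entry that fell over 2-fold, the class of the promoters shown. Over all 32851 promoters of the table, counted one by one, they were 11.9% and 0.667%. A gene counted if any of its promoters held the motif, so these last shares are not on the same measure as those of genes. A match describes these letters and no binding was measured.

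BMP target genes fell. Of 6 tested, 5 fell and 0 rose, with a median log2 of -1.99, and the counts were the same with each library left out in turn. This list was written with earlier results of these data known, as were all lists below, so its direction is no independent evidence. Id2 was 19.1, 17.6 and 21.8 FPKM in the controls and 2.57, 1.37 and 1.33 in the iDKO libraries (log2 -3.19 ± 0.22, limma adjusted p = 3.4e-04). Id3 was 28, 36 and 29.9 against 7.37, 9.36 and 6.09 (log2 -1.98 ± 0.17, limma adjusted p = 8.2e-04), and the groups did not overlap for either gene. Smad6 went from 6.2, 8.17 and 7.55 to 1.12, 1.01 and 0.66 FPKM (log2 -2.45 ± 0.18, limma adjusted p = 4.7e-04). Smad7, which blocks both BMP and TGF-beta receptors, fell less, from 14.3, 16.4 and 15.3 to 10.3, 10.8 and 10.5 (log2 -0.52 ± 0.09, limma adjusted p = 0.0091). Id1 was 43.9, 63 and 46 against 8.43, 11.1 and 19.6 (log2 -2.0 ± 0.30, limma adjusted p = 0.006), with iDKO 3 the highest of its group, and its call ended without both libraries numbered 2 (log2 -1.76). Id4, near the filter, was the member that did not pass.

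**Figure D1:**
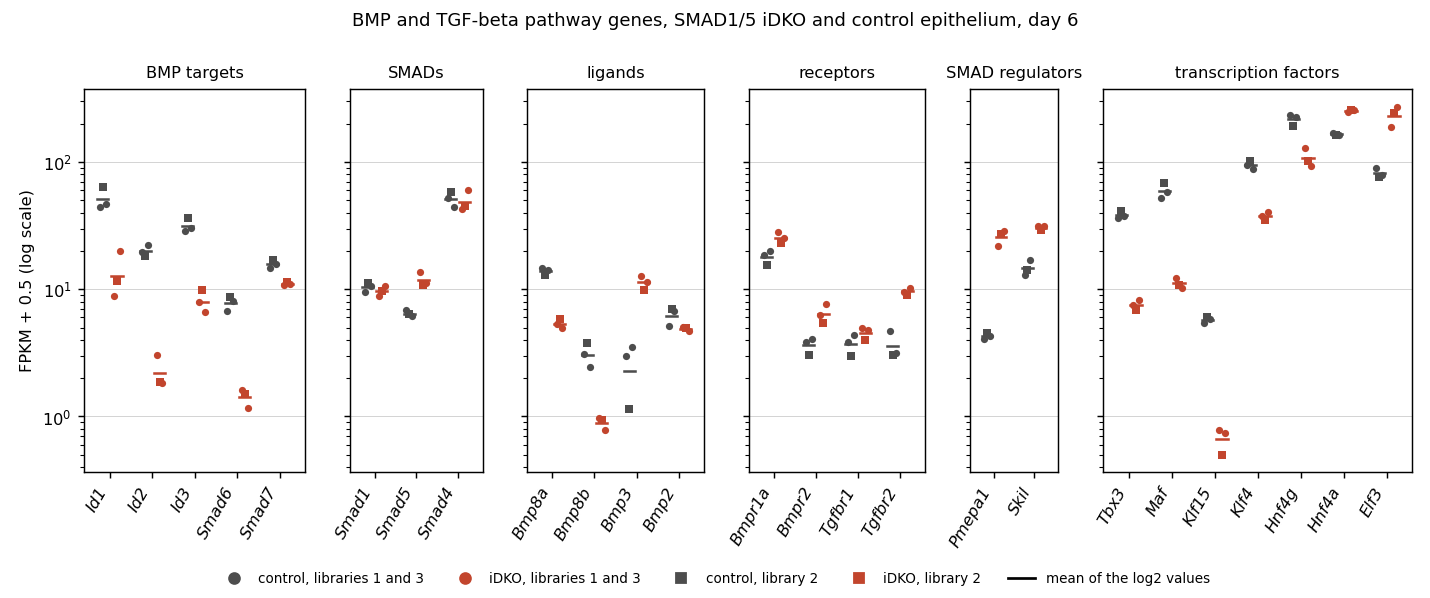
FPKM + 0.5 on a log scale (y) for genes of the BMP and TGF-beta pathways and for transcription factors (x), with 1 point per library, squares for the libraries numbered 2, and a bar at the mean of the log2 values of 3 libraries. Id2, Id3, Smad6, Tbx3, Maf and Klf15 show no overlap between the groups, while Smad1 and Smad4 overlap.

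Signals upstream changed in both directions. Among 4 BMP ligands expressed in the epithelium, Bmp8a fell from 14.3, 12.4 and 13.8 to 4.85, 5.32 and 4.44 FPKM (log2 -1.38 ± 0.11, limma adjusted p = 5.5e-04) and Bmp8b from 2.62, 3.27 and 1.96 to 0.468, 0.431 and 0.286 (log2 -1.78 ± 0.21, limma adjusted p = 0.0027). Bmp3, an atypical member known to oppose BMP signalling, rose from 2.5, 0.639 and 2.99 to 12.3, 9.44 and 10.9 (log2 2.31 ± 0.40, limma adjusted p = 0.0099). Control 2 was the lowest, and all iDKO libraries lay above all controls. Bmp2 was 4.64, 6.45 and 6.21 against 4.55, 4.48 and 4.21 (log2 -0.34 ± 0.14, limma adjusted p = 0.11), which did not pass the test.

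Of 7 BMP receptors and co-receptors, 2 rose and 0 fell. Bmpr2, the type II BMP receptor, was 3.33, 2.52 and 3.58 against 5.82, 4.91 and 7.19 FPKM (log2 0.83 ± 0.18, limma adjusted p = 0.019), and its call ended without iDKO 1 (log2 0.84) or iDKO 3 (0.69). The type I receptor Bmpr1a was 18.2, 15 and 19.5 against 27.7, 22.7 and 24.7 (log2 0.50 ± 0.13, limma adjusted p = 0.033), and its call ended under both scalings (0.33 centred, 0.42 quantile) and without control 1 (0.53), control 2 (0.40), iDKO 1 (0.43), iDKO 2 (0.57) or iDKO 3 (0.51). The TGF-beta type II receptor Tgfbr2 rose from 4.16, 2.57 and 2.66 to 9.08, 8.59 and 9.76 (log2 1.44 ± 0.18, limma adjusted p = 0.003), while its partner Tgfbr1 was 3.36, 2.5 and 3.83 against 4.48, 3.51 and 4.24 (log2 0.31 ± 0.17, limma adjusted p = 0.21).

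Some regulators that act on SMADs rose, while Smad6 and Smad7 fell as given above. Pmepa1, which binds SMAD2 and SMAD3 and is itself a TGF-beta target, went from 3.58, 3.99 and 3.77 to 21.4, 26.8 and 28.4 FPKM (log2 2.60 ± 0.13, limma adjusted p = 1.5e-04). Skil, a nuclear corepressor of SMAD2, SMAD3 and SMAD4, went from 12.4, 13.8 and 16.6 to 30.9, 28.7 and 30.7 (log2 1.06 ± 0.12, limma adjusted p = 0.0021). The groups did not overlap for either. Of 10 antagonists and feedback regulators, 5 rose and 0 fell (median 0.34), but 2 rose without control 3, iDKO 1, iDKO 2, iDKO 3 or both libraries numbered 2 and when centred, and 3 under quantile normalization. Falls numbered 1 when control 2 was left out or under either scaling and 2 with the replicate block. Of 7 SMAD genes, Smad6 and Smad7 fell, Smad5 rose and the other 4 did not pass, among them Smad4 at 51.8, 57.9 and 43.5 against 41.9, 44.9 and 60.3 FPKM (log2 -0.07 ± 0.17, limma adjusted p = 0.78).

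Enterocyte transcription factors changed in both directions. Tbx3, a T-box repressor, fell from 35.9, 40.6 and 37 to 7.02, 6.37 and 7.79 FPKM (log2 -2.35 ± 0.10, limma adjusted p = 1.3e-04), and the large Maf protein gene Maf from 51.8, 68.3 and 57.3 to 11.8, 10.4 and 9.78 (log2 -2.41 ± 0.13, limma adjusted p = 2.0e-04). Klf15, a Krüppel-like factor of amino acid and lipid metabolism, stood at 4.95, 5.51 and 5.38 against 0.289, 0 and 0.244 (log2 -3.12 ± 0.21, limma adjusted p = 3.4e-04), so that 1 iDKO library was listed at 0. Klf4, a factor of differentiated epithelium, fell from 93.7, 102 and 88.2 to 37.2, 34.8 and 39.9 (log2 -1.33 ± 0.10, limma adjusted p = 5.0e-04).

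The paired HNF4 factors, which bind the same enhancers of enterocyte genes, moved in opposite directions. Hnf4g fell from 235, 192 and 225 to 129, 101 and 93.1 FPKM (log2 -1.02 ± 0.15, limma adjusted p = 0.0057). Hnf4a rose from 168, 163 and 164 to 246, 256 and 258 (log2 0.62 ± 0.09, limma adjusted p = 0.0051). No library overlapped in either gene. Elf3, an ETS factor of epithelial cells, rose from 88.9, 76.1 and 78.8 to 188, 241 and 273 (log2 1.51 ± 0.15, limma adjusted p = 0.0015), Creb3l3, a membrane-bound factor of lipid handling, had log2 0.85 and the caudal factor Cdx1 0.58 (limma adjusted p = 0.0079 and 0.011). Of 36 transcription factors tested, 8 rose, 5 fell and 23 did not pass (median 0.16). Without control 1, control 3 or iDKO 1 the rises were 5 and without iDKO 2 or iDKO 3 they were 4. When centred, 4 rose and 8 fell, quantile normalization gave 5 rises, and the replicate block gave 8 falls.

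Nuclear receptors, ligand-activated transcription factors, mostly did not pass the test, and those that did fell more often than they rose. Of 25 tested with their coactivators, 6 fell and 2 rose (median -0.06). The vitamin D receptor Vdr was 115, 131 and 114 against 74.6, 50.05 and 40.4 FPKM (log2 -1.16 ± 0.22, limma adjusted p = 0.012), lowest in iDKO 3, and its call ended without both libraries numbered 2 (log2 -1.05). The mineralocorticoid receptor Nr3c2 fell from 13.1, 15.4 and 12.8 to 7.44, 6.76 and 6.27 (log2 -0.96 ± 0.11, limma adjusted p = 0.0026), and Ppargc1a, a coactivator of mitochondrial genes, from 11.2, 9.94 and 12.9 to 5.47, 4.76 and 3.89 (log2 -1.19 ± 0.15, limma adjusted p = 0.0034). The retinoid X receptor Rxra and the liver X receptor Nr1h3 fell by smaller amounts (log2 -0.52 and -0.53, limma adjusted p = 0.012 and 0.0065). Nr0b2, which encodes SHP, a corepressor known as a target of the bile acid receptor, rose from 4.38, 6.55 and 6.14 to 21, 26.4 and 15.5 (log2 1.78 ± 0.22, limma adjusted p = 0.0031). The rises numbered 1 under both scalings and without control 2, control 3, iDKO 1 or iDKO 3.

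Digestive enzymes of the brush border, the microvillus membrane facing the gut lumen, fell as a group. Their fall went with that of the enterocyte and tuft cell markers given above, the former sharing Alpi and Anpep with this list, and their part in it was not tested. Of 20 peptidases and phosphatases tested, 14 fell and 2 rose, with a median log2 of -1.4 beside 0.18 for all genes. Between 12 and 14 fell with each library left out. Dpp4, which removes dipeptides from peptides and incretins, was 161, 178 and 180.5 against 46.4, 43.8 and 46.1 FPKM (log2 -1.92 ± 0.09, limma adjusted p = 1.3e-04). Anpep, aminopeptidase N and an abundant brush border protein, went from 2083, 2329 and 1952 to 770.2, 705 and 806 (log2 -1.48 ± 0.14, limma adjusted p = 0.0014). The groups were far apart in both genes.

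Other peptidases that fell were Enpep (log2 -1.58), Naaladl1 (-2.19), Xpnpep2 (-1.92), Ace (-1.33) and Mme (-1.76), with limma adjusted p = 5.0e-04, 7.1e-04, 9.2e-04, 0.0031 and 0.0059. The intestinal alkaline phosphatases differed from each other. Akp3 was 1108, 1420.00 and 972 against 308, 244 and 162 FPKM (log2 -2.32 ± 0.26, limma adjusted p = 0.0021), with no overlap. Alpi was 1501, 1692 and 1182 against 1555, 1504 and 1301 (log2 0.01 ± 0.18, limma adjusted p = 0.98), with overlapping groups, and reads could be divided between these similar genes. The 2 risers were trypsin-like membrane proteases, St14 (log2 0.53, limma adjusted p = 0.011) and Tmprss4 (0.33, limma adjusted p = 0.037). Neither passed when centred (log2 0.36 and 0.16). The call of Tmprss4 also ended without control 1 (0.34), control 3 (0.28), iDKO 1 (0.36), iDKO 2 (0.33) or iDKO 3 (0.32), without both libraries numbered 2 (0.38) and without limma's trend (0.33).

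Parts of the microvillus scaffold fell as well. Of 22 structural genes, 7 fell and 2 rose (median -0.27), and 4 fell without iDKO 3. Pdzk1, a scaffold that holds transporters at the membrane, went from 45.6, 62.4 and 62.7 to 15.7, 15 and 12.6 FPKM (log2 -1.94 ± 0.15, limma adjusted p = 6.1e-04). Ezr, which encodes ezrin and ties the membrane to actin, went from 396, 510.2 and 406 to 193, 198 and 199 (log2 -1.14 ± 0.13, limma adjusted p = 0.0021), and its partner Slc9a3r1 from 739.9, 971 and 757 to 456, 474 and 412 (log2 -0.87 ± 0.15, limma adjusted p = 0.0094). Cobl, an actin nucleator, also fell (log2 -0.85, limma adjusted p = 0.0032). Baiap2l1, a membrane-bending adaptor, rose from 23.7, 31.7 and 28.4 to 50.6, 60.9 and 58.3 (log2 1.01 ± 0.13, limma adjusted p = 0.0037). Villin itself, the gene Vil1 whose promoter drives the recombinase, was 864, 1029 and 908 against 676, 749.6 and 659 (log2 -0.42 ± 0.13, limma adjusted p = 0.06) and did not pass, although the groups did not overlap. The other riser, Myo1d, an unconventional myosin, was called (log2 0.47, limma adjusted p = 0.011) except when centred (0.30), which left 1 riser.

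**Figure D2:**
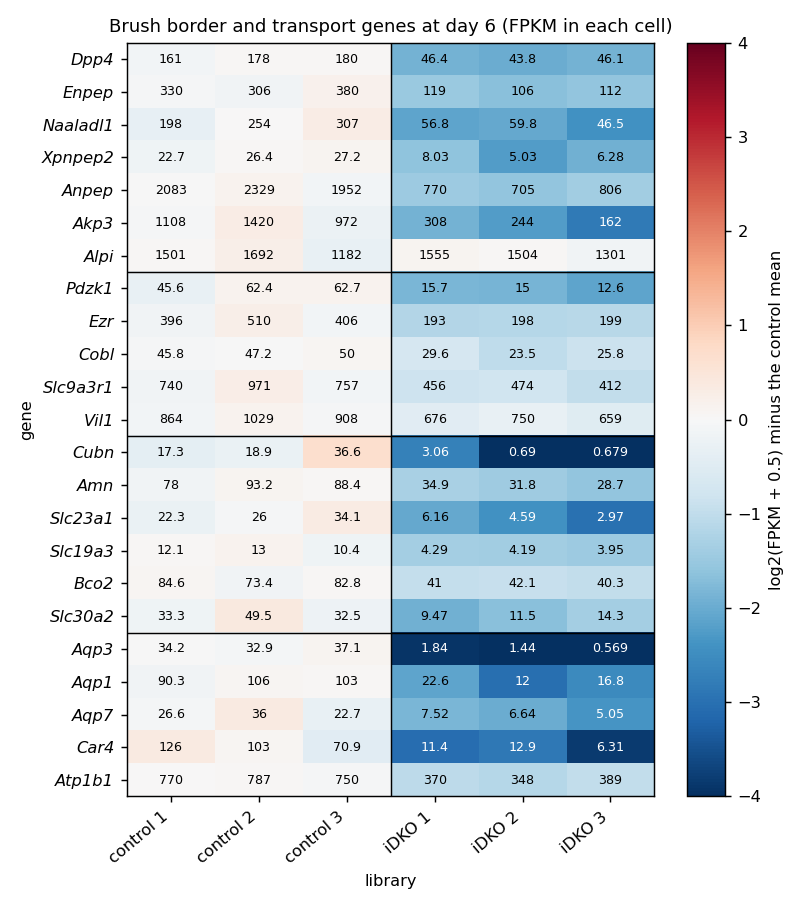
Brush border enzymes, scaffold genes, vitamin and zinc genes and salt and water genes (rows) in the 6 libraries (columns), with the FPKM printed in each cell and the colour giving log2(FPKM + 0.5) minus the control mean. The rows were picked mostly from genes that fell, and called risers of these lists, such as Baiap2l1, Slc23a2 and Car8, are not drawn. By that choice the iDKO columns are blue in nearly all rows, with Alpi near 0 and Cubn, Aqp3 and Car4 darkest.

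Genes of vitamin uptake fell, as did enterocyte markers (6 of 12, as above), whose part was not tested. Of 20 genes of vitamin and sterol uptake, 11 fell and 1 rose (median -0.45), and 8 to 11 fell with each library left out. Cubn encodes cubilin, the receptor for vitamin B12 bound to intrinsic factor, and was 17.3, 18.9 and 36.6 FPKM in the controls and 3.06, 0.69 and 0.679 in the iDKO libraries (log2 -3.78 ± 0.48, limma adjusted p = 0.0035). Amn, the membrane partner of cubilin, went from 78, 93.2 and 88.4 to 34.9, 31.8 and 28.7 (log2 -1.43 ± 0.11, limma adjusted p = 5.9e-04). The 2 vitamin C transporters moved apart. Slc23a1, which takes the vitamin up at the apical membrane, fell from 22.3, 26 and 34.1 to 6.16, 4.59 and 2.97 (log2 -2.49 ± 0.26, limma adjusted p = 0.0017), while Slc23a2 rose from 21, 16.2 and 23.3 to 47.6, 40.01 and 42.5 (log2 1.10 ± 0.15, limma adjusted p = 0.0042). The thiamine transporter Slc19a3 (log2 -1.41), the carotenoid-cleaving enzyme Bco2 (-0.95) and the cholesterol transporter Npc1l1 (-0.87) also fell, with limma adjusted p = 5.9e-04, 0.0012 and 0.0062. With the replicate block 2 rose.

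Of 6 aquaporins, water channels, 4 fell and 2 did not pass, a count made after these values were seen. Aqp3, an aquaglyceroporin, was 34.2, 32.9 and 37.1 FPKM in the controls and 1.84, 1.44 and 0.569 in the iDKO libraries (log2 -4.38 ± 0.27, limma adjusted p = 3.1e-04). Aqp1 was 90.3, 106 and 103 against 22.6, 12 and 16.8 (log2 -2.55 ± 0.22, limma adjusted p = 8.0e-04) and Aqp7 26.6, 36 and 22.7 against 7.52, 6.64 and 5.05 (log2 -2.06 ± 0.20, limma adjusted p = 0.0014). The fourth, Aqp8, had log2 -1.69 (limma adjusted p = 0.019), and its call ended without control 3 (-1.59), iDKO 2 (-1.61) or iDKO 3 (-1.51). Car4, a membrane carbonic anhydrase, was 126, 103 and 70.9 against 11.4, 12.9 and 6.31 (log2 -3.25 ± 0.30, limma adjusted p = 0.0011), the controls themselves ranging widely. Atp1b1, a beta subunit of the sodium pump, fell from 770.5, 787 and 750.5 to 370.3, 348 and 389 (log2 -1.06 ± 0.11, limma adjusted p = 0.0016). Of 30 genes of salt, acid and water transport, 10 fell and 2 rose (median -0.18).

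Risers among these were Car8, a carbonic anhydrase-related protein, from 4.25, 2.77 and 3.63 to 13.7, 19.2 and 9.52 FPKM (log2 1.82 ± 0.26, limma adjusted p = 0.0051), and the chloride channel Cftr (log2 0.84, limma adjusted p = 0.032). The call of Cftr ended without control 3 (0.94), iDKO 1 (0.74) or iDKO 3 (0.81), which left 1 riser. Mineral transport was mixed. Of 19 genes of iron, zinc and copper handling, 3 fell and 0 rose (median 0.04), led by the zinc transporter Slc30a2, which went from 33.3, 49.5 and 32.5 to 9.47, 11.5 and 14.3 (log2 -1.66 ± 0.21, limma adjusted p = 0.0032), and 1 fell without control 1, iDKO 2 or iDKO 3. Beside the 0 rises, 5 had an unadjusted p below 0.05, and 1 or 2 rose without control 1 (1), without control 2 (1), with the replicate block (1) or without both libraries numbered 2 (2). Of 8 genes of calcium, magnesium and phosphate transport, 3 phosphate transporters rose. They included Slc20a1, from 17.8, 11 and 12.6 to 28.7, 33.1 and 29.6 (log2 1.14 ± 0.18, limma adjusted p = 0.0065), and Slc20a2 (log2 0.92, limma adjusted p = 0.0098), and Slc34a2 (log2 1.26, limma adjusted p = 0.009), whose call ended without both libraries numbered 2 (1.16). The 2 members that fell were down to 1 without control 1, control 2 or iDKO 1 and with the replicate block, and to 0 without control 3, iDKO 2, iDKO 3 or both libraries numbered 2. Over all 225 tested genes named as solute carriers, a count made after these values were seen, 63 fell and 45 rose (27 rose without iDKO 2 or iDKO 3).

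Genes that rose included surface and junction proteins. Lypd8, which encodes a secreted protein that keeps flagellated bacteria off the epithelium, was 819, 738 and 773 FPKM in the controls and 2886, 3374 and 3782 in the iDKO libraries (log2 2.10 ± 0.16, limma adjusted p = 5.6e-04). Cldn2, a claudin that forms cation- and water-permeable pores and is normally highest in crypts, rose from 17, 7.65 and 13.6 to 69.4, 90.1 and 129.7 (log2 2.89 ± 0.33, limma adjusted p = 0.0022). Of 12 antimicrobial genes of the lower villus tested, 2 rose, Lypd8 and the inflammasome gene Nlrp6, and 0 fell, beside 15.5% higher over all genes. The list median was -0.25 with 8 of the 12 members below 0, so the list did not rise as a group. The call of Nlrp6 (log2 0.61, limma adjusted p = 0.015) ended without control 3 (0.61), iDKO 1 (0.58) or iDKO 2 (0.54) and without both libraries numbered 2 (0.47). Reads of Lypd8 and its neighbour in sequence, listed as LYPD8L (399.9, 433 and 285 against 3258, 2924 and 2784 FPKM, log2 3.02 ± 0.19, limma adjusted p = 3.1e-04), could be divided between them.

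Junction genes rose, though with counts that depended on single libraries. Of 21 genes of tight and adherens junctions, 9 rose and 1 fell (median 0.38), and 5 rose without control 3 or iDKO 2 and when centred. Under both scalings 2 fell, and without both libraries numbered 2 the falls were 0 by limma. E-cadherin, Cdh1, went from 191, 155 and 202 to 333, 332 and 347 FPKM (log2 0.89 ± 0.13, limma adjusted p = 0.0049) and its cytoplasmic partner beta-catenin, Ctnnb1, from 190.00, 186 and 187 to 305, 309 and 315 (log2 0.72 ± 0.09, limma adjusted p = 0.0031). Cldn23 rose from 17.8, 16.6 and 15.2 to 32, 30.7 and 37.8 (log2 1.00 ± 0.11, limma adjusted p = 0.0022). Cldn15, the cation-pore claudin of the villus, fell from 309.6, 337 and 326 to 235, 203 and 188 (log2 -0.64 ± 0.12, limma adjusted p = 0.012), the reverse of Cldn2, and its call ended without both libraries numbered 2 (log2 -0.60).

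Keratins, the intermediate filament proteins of epithelia, rose in 3 of 6 cases and fell in 0 (median 0.70), with the same counts when any library was left out. Krt19 was 375, 243 and 345 against 789, 895 and 824 FPKM (log2 1.4 ± 0.18, limma adjusted p = 0.0036) and Krt7, a keratin of ducts and stomach, 4.62, 2.42 and 4.86 against 10.2, 16.2 and 16 (log2 1.73 ± 0.28, limma adjusted p = 0.0077). Krt18 rose by log2 0.92 (limma adjusted p = 0.0076), a call that ended without both libraries numbered 2 (0.80). Its partner Krt8 had log2 0.48 ± 0.16 and did not pass (limma adjusted p = 0.063), nor did the villus keratin Krt20 (log2 0.23 ± 0.19, limma adjusted p = 0.38). Under both scalings 1 keratin fell.

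**Figure D3:**
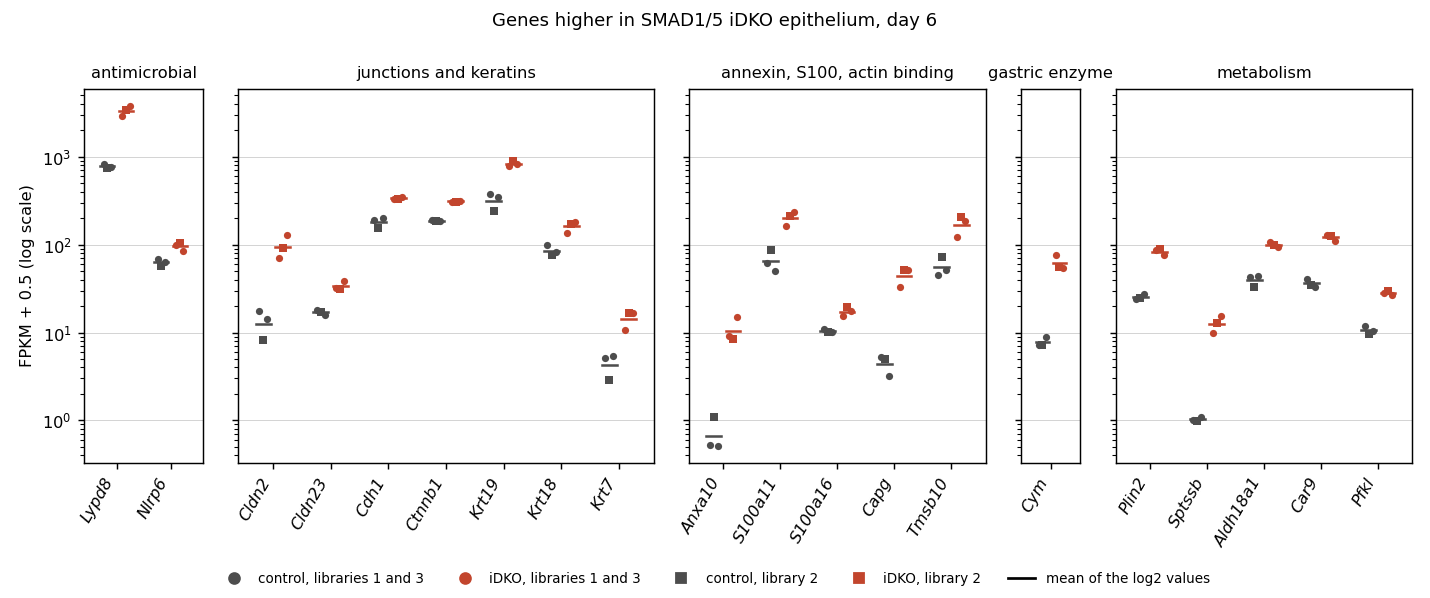
FPKM + 0.5 on a log scale (y) for genes that rose (x), with 1 point per library, squares for the libraries numbered 2, and a bar at the mean of the log2 values of 3 libraries. All 3 iDKO libraries lie above all 3 controls for each gene shown, with the widest gaps in Anxa10, Sptssb, Capg and Cym.

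Calcium-binding annexins and S100 proteins rose together. Of 17 tested, 9 rose and 0 fell (median 0.74), and 5 rose without iDKO 2, 4 without iDKO 3 and 5 without both libraries numbered 2. The list holds Anxa10, which was known as one of the largest risers when the list was written. S100a11 was 62.1, 87.4 and 50.1 against 162, 214 and 235 FPKM (log2 1.63 ± 0.23, limma adjusted p = 0.0048) and S100a16 10.5, 9.52 and 9.56 against 14.7, 19 and 16.9 (log2 0.74 ± 0.11, limma adjusted p = 0.0066). Anxa10, normally a gastric annexin, was under 1 FPKM in every control (0.0208, 0.586 and 0.0155) and 8.61, 8.04 and 14.3 in the iDKO libraries (log2 3.98 ± 0.35, limma adjusted p = 9.3e-04). Cym, the milk-clotting stomach protease chymosin, was 6.75, 6.75 and 8.29 against 76.6, 54.9 and 53.7 (log2 2.99 ± 0.16, limma adjusted p = 2.1e-04). With the replicate block 1 annexin or S100 gene fell.

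Among 20 genes described for fetal or regenerating epithelium, 10 rose and 1 fell (median 0.85). Without Capg, another known riser, the count was 9 of 19 (median 0.83), and 6 of the 20 rose without iDKO 3 and when centred. Falls numbered 0 without control 1, control 2, iDKO 1 or iDKO 3, while 3 fell under both scalings and 2 without limma's trend. Capg, an actin-capping protein, went from 4.77, 4.49 and 2.71 to 32.4, 51.4 and 51.1 FPKM (log2 3.34 ± 0.25, limma adjusted p = 5.1e-04). Clu, which encodes the chaperone clusterin, was 0.111, 0.31 and 0.629 against 2.53, 2.63 and 3.88 (log2 2.07 ± 0.28, limma adjusted p = 0.0039). Ly6e, a surface protein induced by interferon, was 7.68, 4.26 and 5.27 against 15.5, 23.6 and 28.7 (log2 1.88 ± 0.27, limma adjusted p = 0.0053), and Tmsb10, which binds actin monomers, 44.9, 72.2 and 50.5 against 123, 205 and 185 (log2 1.60 ± 0.24, limma adjusted p = 0.0062). The list shares members with the annexin and keratin lists. Ly6a, the usual marker of that state, did not reach the filter. The member that fell was Lgals3, which encodes galectin-3 (log2 -0.83, limma adjusted p = 0.028), and without those same 4 libraries it had -0.83, -0.71, -0.68 and -0.82.

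Signals and receptors of growth changed in few cases. Pdgfa, a ligand sent to the mesenchyme, rose from 10.1, 12 and 8.97 to 27.8, 27.1 and 25.4 FPKM (log2 1.33 ± 0.12, limma adjusted p = 0.001). Of 15 EGF family genes, 3 rose and 0 fell (median 0.40). Errfi1, a feedback inhibitor of the EGF receptor, went from 23.5, 27.2 and 22.9 to 44, 51.6 and 47.4 (log2 0.95 ± 0.11, limma adjusted p = 0.0021), and the ligand Btc from 0.843, 0.554 and 0.683 to 3.3, 2.12 and 2.96 (log2 1.45 ± 0.20, limma adjusted p = 0.0043). Of 20 intestinal stem cell genes, 2 rose and 1 fell (median 0.17), with 4 and 3 under the replicate block, and 1 rose without iDKO 3, 3 fell without control 2 and 0 fell without control 3, iDKO 2 or iDKO 3. Centring and leaving out both libraries numbered 2 gave 2 falls and quantile normalization 3. The receptor Ephb2 was 4.34, 1.92 and 3.81 against 8.69, 8.23 and 9.5 (log2 1.33 ± 0.26, limma adjusted p = 0.013), lowest in control 2, and its call ended without iDKO 3 (log2 1.28). Fewer cells of a type and less RNA per cell cannot be told apart in these bulk samples.

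Sphingolipid genes changed in both directions. Sptssb, a small activating subunit of serine palmitoyltransferase, the first enzyme of sphingolipid synthesis, was 0.522, 0.482 and 0.602 FPKM in the controls and 9.48, 12.3 and 15 in the iDKO libraries (log2 3.60 ± 0.18, limma adjusted p = 1.6e-04). The catalytic-core subunit Sptlc1 also rose, by a smaller amount (log2 0.65, limma adjusted p = 0.0081). Enzymes that digest sphingomyelin and ceramide in the lumen fell. Enpp7, the alkaline sphingomyelinase, went from 183, 266 and 349.6 to 10.5, 10.9 and 4.78 (log2 -4.89 ± 0.35, limma adjusted p = 4.7e-04) and the neutral ceramidase Asah2 from 303, 316 and 349 to 126, 83.8 and 62.4 (log2 -1.88 ± 0.24, limma adjusted p = 0.0034). Sgpl1, which ends the pathway by cleaving sphingosine phosphate, fell by log2 -1.18 (limma adjusted p = 0.0017), and the neutral sphingomyelinase Smpd3 rose by 1.38 (limma adjusted p = 0.0015). Sptssb was known as a riser when the list was written. Of 28 tested, 8 rose and 5 fell (median 0.17), with 5 rises without control 3 or iDKO 3 and when centred, and 3 falls without control 1, control 3 or iDKO 2 and without both libraries numbered 2.

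Genes of fat oxidation changed in both directions. Acadl, a mitochondrial acyl-CoA dehydrogenase, went from 116, 101 and 101 FPKM in the controls to 211, 284 and 302 in the iDKO libraries (log2 1.31 ± 0.16, limma adjusted p = 0.0027), and Plin2, which coats lipid droplets, from 23.6, 24.2 and 27.3 to 85.4, 88 and 75.6 (log2 1.71 ± 0.10, limma adjusted p = 2.8e-04). The medium-chain acyl-CoA dehydrogenase Acadm had log2 -0.50 (limma adjusted p = 0.021), a call that ended without control 3 (-0.51), iDKO 3 (-0.40) or both libraries numbered 2 (-0.53). Of 22 targets of PPAR-alpha, a fatty acid-activated receptor, 9 rose and 4 fell (median 0.29), with 5 rises without iDKO 3, 2 falls without control 3 or iDKO 3 and 1 fall without both libraries numbered 2.

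Glycolytic and hypoxia genes moved in both directions, with 6 rises and 4 falls among 32 (median 0.09) and 2 falls without control 3 or iDKO 3. These counts were near the 15.5% higher and 8.26% lower of all genes, so only single genes are described. Pfkl, the liver-type phosphofructokinase, rose from 11.5, 9.21 and 9.84 to 27.6, 29.4 and 26.5 FPKM (log2 1.41 ± 0.11, limma adjusted p = 5.3e-04), Aldoa, an aldolase, from 99.4, 90.5 and 83.2 to 167, 214 and 178 (log2 1.03 ± 0.13, limma adjusted p = 0.0031) and Car9, a membrane carbonic anhydrase, from 40.1, 34.6 and 32.8 to 128, 126 and 110.00 (log2 1.75 ± 0.11, limma adjusted p = 3.2e-04). The pyruvate kinase Pkm (log2 -0.62) and the angiogenic factor Vegfa (-0.78) fell, with limma adjusted p = 0.011 and 0.0067.

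In arginine metabolism Aldh18a1, which makes the precursor of proline and citrulline, rose from 42.2, 32.3 and 43.9 to 107, 99.1 and 92.5 FPKM (log2 1.33 ± 0.14, limma adjusted p = 0.0015). Arg2, an arginase, fell from 373, 376 and 389 to 183, 138 and 104 (log2 -1.46 ± 0.20, limma adjusted p = 0.0043), and Got1, an aspartate aminotransferase, had log2 -1.27 (limma adjusted p = 0.0038). Of 15 tested, 2 rose and 3 fell (median 0.06), with 1 rise when any library or both libraries numbered 2 were left out or values were centred.

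Ligands that epithelial cells show to intraepithelial lymphocytes changed in both directions. Of 14 tested, 5 fell and 3 rose (median -0.25), and 3 fell without iDKO 3. Il15, a survival cytokine of these lymphocytes, fell from 11.6, 15.5 and 13.3 to 7.15, 5.25 and 4.42 FPKM (log2 -1.21 ± 0.19, limma adjusted p = 0.0065). Btnl6, a butyrophilin-like protein, fell from 268, 299 and 279 to 177, 168 and 168 (log2 -0.72 ± 0.10, limma adjusted p = 0.0039), while Btnl1, a family member that acts with it on gamma delta T cells, had log2 -0.22 ± 0.11 and did not pass (limma adjusted p = 0.18). Lgals9, which encodes galectin-9, rose from 193, 195 and 161 to 355, 457 and 391 (log2 1.13 ± 0.14, limma adjusted p = 0.0031), and the adhesion ligand Nectin1 from 5.57, 5.66 and 6.99 to 12.8, 14 and 11.2 (log2 1.00 ± 0.13, limma adjusted p = 0.0035). Markers of T cells and intraepithelial lymphocytes summed to 131 to 164 FPKM in the controls and 51.2 to 138 in the iDKO libraries, and 0 of 10 tested passed in limma. All 10 lay below 0, beside 3413 of the 10827 genes tested, with a median log2 of -0.55. At an unadjusted p below 0.05 2 of them fell, and 1 fell under both scalings, without control 2 and without both libraries numbered 2. Their part in these values was not tested.

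The circadian repressor Nr1d1 fell from 66.9, 77.3 and 68.8 to 22.1, 25.3 and 20.3 FPKM (log2 -1.64 ± 0.11, limma adjusted p = 3.6e-04), and Bhlhe40, another clock repressor, rose from 18.9, 16.4 and 22.6 to 57.7, 44.6 and 52.8 (log2 1.41 ± 0.15, limma adjusted p = 0.0017). The output factor Dbp had log2 -1.19 (limma adjusted p = 0.011), a call that ended without both libraries numbered 2 (-1.14). Of 17 clock genes, 7 fell and 2 rose (median -0.29). With single libraries left out the falls were 3 (control 3, iDKO 2 or iDKO 3) or 4 (control 1 or control 2) and the rises 1 in all those cases. Without iDKO 1 the counts stayed at 7 falls and 2 rises, and without both libraries numbered 2 they were 2 and 1. Under both scalings 1 rose. The time of day of collection is not given in the labels.

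Stress genes changed one by one. Ddit4, an inhibitor of the growth kinase complex mTORC1, rose from 12.7, 9.93 and 7.39 to 65.9, 65.2 and 45.7 FPKM (log2 2.51 ± 0.22, limma adjusted p = 9.3e-04). Among 18 p53 targets, 6 rose and 3 fell (median 0.49). Ccng1, which encodes cyclin G1, was 17.2, 15.9 and 19.9 against 49.8, 41 and 52 (log2 1.4 ± 0.13, limma adjusted p = 0.0011), and Phlda3, an inhibitor of the kinase AKT, 0.0306, 0 and 0.0227 against 1.03, 1.18 and 1.63 (log2 1.77 ± 0.23, limma adjusted p = 0.0036). Phlda3 was tested only through its iDKO values, which lay near the filter. The p53 counts went to 3 rises without iDKO 3, to 1 fall without iDKO 1, iDKO 3 or both libraries numbered 2 and to 0 falls without control 3 or iDKO 2. Cycling cell markers summed to 146, 68.8 and 129 FPKM in the controls and 191, 165 and 189 in the iDKO libraries. All 16 lay above 0, beside 7414 of the 10827 genes tested, with a median of 0.71 (0.33 without control 2). By limma 2 of the 16 rose (4 with the block or without control 2, 6 without control 1, and 1 under both scalings or without control 3 or any iDKO library). Their part in the p53 values was not tested.

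Among 19 ATF4 targets 3 rose and 5 fell (median 0.33), with 3 falls without control 1, iDKO 1 or iDKO 3. Trib3, a pseudokinase, fell from 11, 14 and 14.7 to 5.17, 3.6 and 2.46 FPKM (log2 -1.74 ± 0.24, limma adjusted p = 0.0046) and Slc3a2, the heavy chain of several amino acid transporters, from 108, 119 and 107 to 55, 58.7 and 53.5 (log2 -0.99 ± 0.09, limma adjusted p = 0.001). Of 19 NRF2 targets, 6 fell and 3 rose (median -0.45), with 0 rises when centred or without control 1, iDKO 2 or iDKO 3 and 1 without control 3 or iDKO 1. The glutathione transferases Gstm1 (log2 -3.73) and Gstm3 (-3.20) led the falls with limma adjusted p = 0.0012 for both, and reads could be divided within this family. Osgin1, an oxidative stress growth inhibitor, went from 35.3, 36.7 and 30.7 to 13.6, 13.2 and 12 (log2 -1.37 ± 0.10, limma adjusted p = 5.1e-04). The unfolded protein response had 2 falls and 0 rises among 19 (median 0.17), with 1 rise at an unadjusted p below 0.05 and with the replicate block, and 1 fall without iDKO 2, iDKO 3 or both libraries numbered 2.

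**Figure D4:**
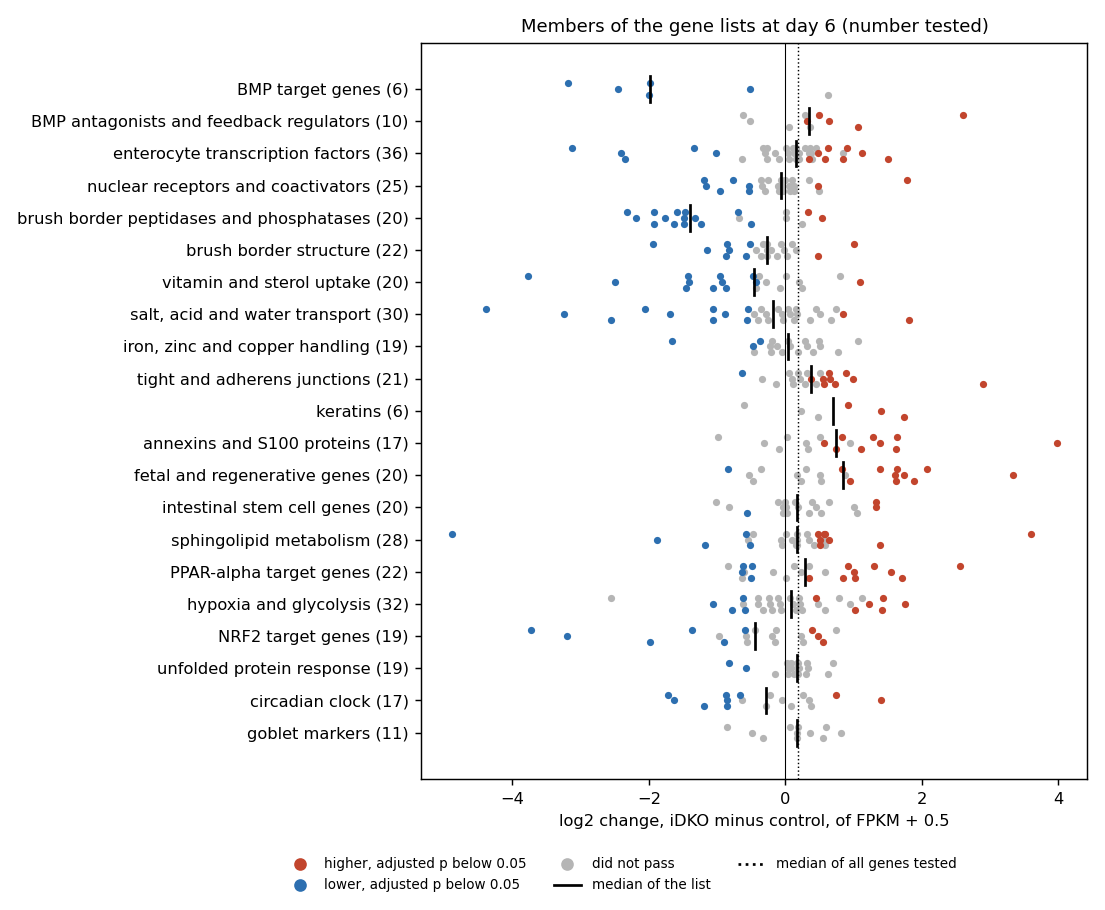
Log2 change (x) of each tested member of 21 gene lists (rows), red for higher, blue for lower and grey for not passed at an adjusted p of 0.05, with the median of a list as a bar and of all genes (0.18) as a dotted line. Members of the peptidase, brush border structure and vitamin uptake lists and BMP targets lie mostly left of 0. Annexins, keratins, junction and fetal genes, BMP antagonists and unfolded protein response genes lie mostly right, as do 7414 of all 10827 genes tested. Members of the other lists lie on both sides.

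Goblet cell markers (11 tested), Paneth cell markers (14) and sex-linked genes (4) had 0 calls in either direction from limma and 0 at an unadjusted p below 0.05, although 2 goblet markers and 1 Paneth marker fell without control 2, 2 and 4 fell without both libraries numbered 2, and 1 Paneth marker fell with the replicate block. Sex-linked genes summed to 26.3, 27.7 and 43.8 FPKM in the controls and 29.1, 27.4 and 52.6 in the iDKO libraries, highest in the libraries numbered 3. Their median log2 of 0.04 went to -1.11 without control 3 and to 1.24 without iDKO 3. The absence of calls therefore does not show the libraries to be alike in these genes, and their part in other values was not tested. Regional lists had more calls. Of 12 genes known for the ileum, the distal part of the small intestine, 6 fell and 1 rose (median -1.04), and of 8 colon genes 4 fell and 0 rose (median -0.72, with 0 rises at an unadjusted p below 0.05). Both lists share members with those above, Amn, Cubn and Enpp7 with the ileum and Car4 with the colon, and Cyp2c55 (log2 -5.13, limma adjusted p = 2.3e-04) is a cytochrome P450 of a family with near-identical copies. The ileal riser was Pyy, a hormone of enteroendocrine cells, at 2.72, 2.57 and 2.81 against 22.9, 7.18 and 12.1 FPKM (log2 2.04 ± 0.37, limma adjusted p = 0.011). Pyy was the only riser of 16 enteroendocrine markers tested, of which 2 fell (median -0.21) and 11 lay below 0. With single libraries left out 1 to 3 of these markers fell. The falls were 3 when centred and 4 under quantile normalization or the replicate block, and 2 rose without both libraries numbered 2.

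Of 18 Notch pathway genes, 2 rose and 2 fell, beside 15.5% higher and 8.26% lower over all genes. A riser among them was Hes1, the main Notch target (log2 1.12, limma adjusted p = 0.047). The call of Hes1 ended under both scalings (0.95 centred, 0.98 quantile) and without control 1 (1.22), iDKO 1 (1.15), iDKO 2 (1.25) or iDKO 3 (0.95). Of 14 chemokines and cytokines of the epithelium, 1 rose and 4 fell. The riser was Cxcl16, a membrane-bound chemokine, at 5.39, 6.71 and 6.2 against 12.4, 17.9 and 12.6 FPKM (log2 1.15 ± 0.16, limma adjusted p = 0.0049). Of 21 mucins and glycan enzymes, 2 rose and 1 fell, below those all-gene shares. The risers were the transmembrane mucin Muc4, from 6.64, 5.07 and 6.73 to 16.2, 12.2 and 21.8 (log2 1.34 ± 0.22, limma adjusted p = 0.0077), and Galnt3, which starts mucin-type sugar chains, from 7.18, 4.3 and 6.75 to 21.1, 22 and 30.6 (log2 1.94 ± 0.22, limma adjusted p = 0.0022), with no overlap between the groups in either.

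Of 23 gastric genes listed 7 were tested, and 4 of these rose (median log2 1.97). Without the known risers Anxa10 and Tmem229b 2 of 5 rose, with a median of 0.17 beside 0.18 for all genes. Those 2 were Cym and Ctse, a gastric aspartic protease (log2 1.97, limma adjusted p = 0.031). The call of Ctse ended under both scalings (1.80 centred, 1.88 quantile), with the replicate block (1.97) and without control 1 (1.69), control 3 (1.80), iDKO 1 (1.64) or iDKO 3 (1.88). Duodenal genes rose in 3 of 11 cases (1 without control 3 or any iDKO library). Of 10 heat shock genes, 2 rose (6 with the replicate block and 0 when centred or without control 3, iDKO 2, iDKO 3 or both libraries numbered 2), and of 16 immediate early genes 3 rose and 1 fell (0 rose when centred or without control 2, control 3, any iDKO library or both libraries numbered 2, 1 rose without control 1, 0 fell without control 3 or any iDKO library, and 1 rose and 3 fell under quantile normalization). Among 8 complement and acute phase genes 1 rose and 1 fell, beside 15.5% and 8.26% of all genes. Among 7 hedgehog, Wnt and PDGF signals 2 rose and 2 fell. With single libraries left out, Notch genes had 0 to 2 rises and 0 to 2 falls, chemokines 1 to 3 falls, mucins and glycan enzymes 0 falls, complement genes 0 to 2 rises and 0 or 1 falls, and hedgehog, Wnt and PDGF signals 1 or 2 falls. Without both libraries numbered 2, 0 Notch genes, 1 chemokine, 1 of the hedgehog, Wnt and PDGF signals, 1 gastric gene and 0 mucin or glycan genes fell and 4 mucin or glycan genes rose, as did 4 with the replicate block. Under both scalings 0 Notch genes rose and 4 fell, and 1 duodenal gene fell.

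Of the genes with the largest changes, several belong to no list above. Dock4, a guanine nucleotide exchange factor, rose from 0.55, 0.27 and 0.396 to 8.76, 7.8 and 6.58 FPKM (log2 3.18 ± 0.17, limma adjusted p = 2.1e-04). Slc4a11, a membrane transporter related to bicarbonate carriers, rose from 0.105, 0.213 and 0.227 to 5.49, 4.92 and 4.85 (log2 3.04 ± 0.16, limma adjusted p = 1.9e-04), and Sh3tc1, an SH3 domain protein, from 1.52, 1.07 and 1.32 to 12.1, 12.4 and 12.8 (log2 2.85 ± 0.12, limma adjusted p = 1.3e-04). Every control was below 2 FPKM for these 3 genes.

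On the falling side Slc5a12, a sodium-coupled lactate transporter, went from 87.3, 102 and 85.8 to 2.13, 1.03 and 0.45 FPKM (log2 -5.88 ± 0.34, limma adjusted p = 2.4e-04). Aldh4a1, a mitochondrial enzyme of proline breakdown, went from 20.9, 33 and 19.2 to 1.12, 0.903 and 0.416 (log2 -4.25 ± 0.28, limma adjusted p = 3.2e-04). Aspa, which cleaves N-acetylaspartate, went from 40.2, 47.4 and 40.3 to 2.46, 2.45 and 1.43 (log2 -4.07 ± 0.18, limma adjusted p = 1.3e-04). The nucleoside transporter Slc28a1 was 86, 145.1 and 106 against 11.5, 6.51 and 2.29 (log2 -4.16 ± 0.50, limma adjusted p = 0.0028), with iDKO 3 the lowest.

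The ribosomal protein gene Rpl29 was 209, 72.8 and 92.2 against 4.9, 4.45 and 3.65 FPKM (log2 -4.55 ± 0.37, limma adjusted p = 6.7e-04), a family with many near-identical copies whose reads could be divided, and its log2 change was 0.11 at day 30. Among abundant genes, the trypsin inhibitor Spink1 fell from 602, 939.9 and 940.2 to 285, 302 and 236 (log2 -1.57 ± 0.21, limma adjusted p = 0.0039). Cyp4f16, a cytochrome P450, rose from 166, 131 and 116 to 579, 523 and 482 (log2 1.95 ± 0.16, limma adjusted p = 6.7e-04).

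The same genes were read in 2 other experiments of the series, each against its own controls and with no test, since each had 2 mutant and 2 control libraries in a separately normalised table. These were SMAD1/5 iDKO epithelium at day 30 and epithelium deleted for Smad4 alone (SMAD4 iKO) at day 6. Of the 353 genes called higher by more than 2-fold at day 6, 339 were in the day 30 table and 97.6% of them had a log2 change above 0 there, with a median of 1.15. In the SMAD4 iKO, 91.1% of 337 were above 0, with a median of 0.77. Of the 382 genes called lower by more than 2-fold, 373 were in each of the 2 tables, not necessarily the same genes. Below 0 were 98.7% of them at day 30 (median -1.30) and 97.1% in the SMAD4 iKO (median -1.20). Over all tested genes 51.6% and 54.1% were above 0, with medians of 0.01 and 0.03. With all 5 controls of the day 30 table, 2 of the SMAD1/5 line and 3 of the SMAD1/4/5 line, the day 30 medians were 1.14 and -1.30.

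Some genes that rose at day 6 had values above 0 at day 30 and near or below 0 in the SMAD4 iKO. These genes were picked after their values were seen, and the difference between experiments was not tested. Elf3 had log2 1.51 at day 6, 0.90 at day 30 and a value listed near 0 in the SMAD4 iKO. Skil was 1.06, 0.92 and -0.11 in the same order, Baiap2l1 1.01, 0.71 and -0.01, and Cym 2.99, 2.33 and -0.92. Slc34a2 was 1.26 and 0.89 in the SMAD1/5 iDKO and -3.20 in the SMAD4 iKO. Dock4 was 3.18 and 3.70 against 0.14.

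The list median of p53 targets was 0.49 in the SMAD1/5 iDKO at day 6, -0.07 at day 30 and 0.50 in the SMAD4 iKO at day 6. Phlda3 stood at log2 1.77, -0.06 and 2.64 in that order and Ccng1 at 1.4, 0.29 and 1.63. The PPAR-alpha list had medians of 0.29, -0.31 and 0.43, and the cycling cell markers 0.71, 0.01 and 0.49. By contrast BMP targets had medians of -1.99, -1.76 and -2.33, peptidases and phosphatases -1.4, -0.86 and -1.22, and annexins and S100 proteins 0.74, 0.79 and 0.94.

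**Figure D5:**
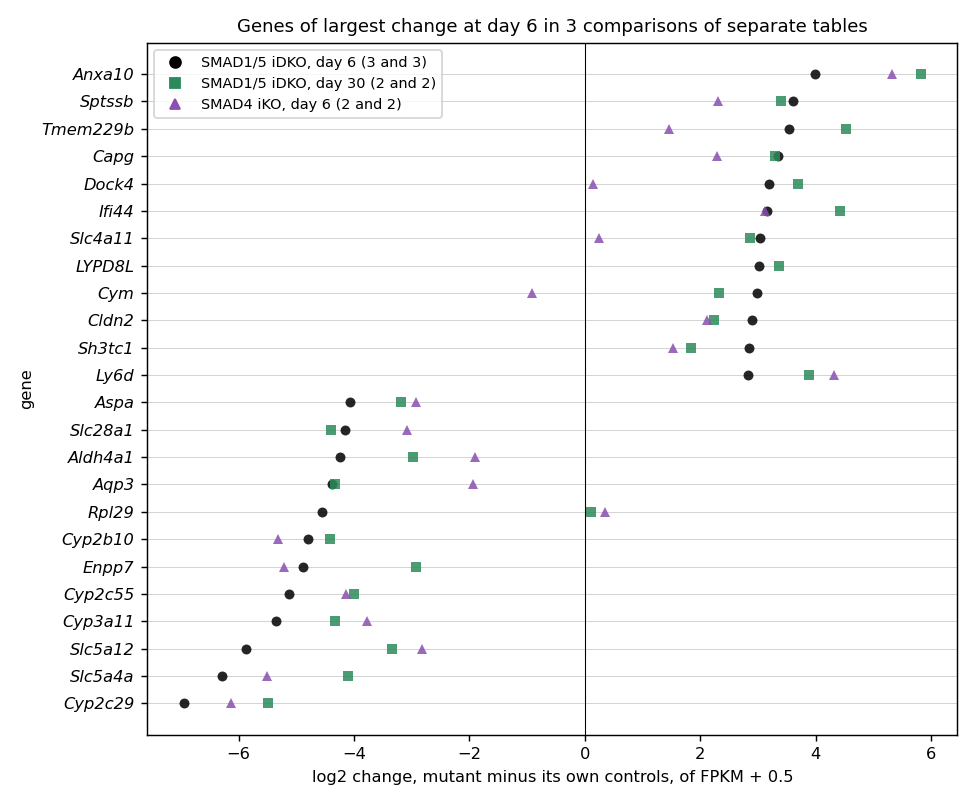
Log2 change of mutant minus its own controls (x) for the 12 genes of largest rise and the 12 of largest fall at day 6 (rows), in the SMAD1/5 iDKO at day 6 (circles), at day 30 (squares) and in the SMAD4 iKO at day 6 (triangles), with no error drawn because the other experiments had 2 libraries a group. Nearly all symbols of a gene lie on the same side of 0, except Cym in the SMAD4 iKO and Rpl29 in both other experiments, and LYPD8L has no SMAD4 iKO value. Some drawn genes were under 1 FPKM in all controls, or in all iDKO libraries, at day 6 and could be called only in the direction shown.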

How the data were processed

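The data were 3 tables of gene-level FPKM values, as deposited by the authors, and the tests used the table of the day 6 SMAD1/5 libraries. HISAT2 2.2.1 and featureCounts 2.0.1 are named in the submitters' processing notes, which also list the builds GRCm39 and mm10 with no role given. The strand setting and the step from counts to FPKM are not given in the sources used here. Since FPKM values are not counts, no count test was run. Depths were estimated from the steps between low values of a library, with 90% to 91.6% of low values whole at the depth chosen, by a rule that was changed once after its first output was seen, so they are approximate.

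Rows with a repeated symbol (34 of 16861) were left out. Genes that reached 1 FPKM in 3 or more libraries were tested on log2(FPKM + 0.5) with limma 3.58.1 in R 4.3.3, with a trended prior and Benjamini-Hochberg adjustment over all 10827 genes. Log2 changes on this scale understate those of low genes. The test was checked on simulated data. The members, gene lists (44, with 17 marker lists) and comparisons were chosen with earlier results of these data known. Genes were named from a rule, and not every gene it takes is described in the text (some are only plotted): the 12 largest rises and falls by log2 and the 10 largest by FPKM among called genes, and up to 6 members of smallest adjusted p per list, with members that did not pass where needed and signalling and transcription factor lists whole. Acadm, Ace, Cftr, Lgals3, Mme, Npc1l1, Pkm, St14 and Tmprss4, and genes singled out in the side by side values, were chosen after their values were seen. Within a group the libraries had Pearson correlations across genes of 0.955 to 0.984, and between groups 0.895 to 0.95.

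The labels number the libraries 1 to 3 in both groups. Deviations from the group means correlated at 0.143, 0.583 and 0.221 between same-numbered libraries, each above 0.1. Control 1 with iDKO 3 (0.366) and control 3 with iDKO 1 (0.253) correlated more than 0.143 and 0.221. Deviations from a mean of 3 libraries sum to 0, so these values depend on each other and cannot settle a pairing, which no label states. The main test therefore had no replicate block, and the block was run as an alternative. Alternatives were other pseudocounts (0.1 and 1), no filter and a filter at 5 FPKM, median centring, quantile normalization, other limma priors, the replicate block and leaving out each library or both libraries numbered 2. The other 2 tables were normalized separately and only set side by side. Some results are not reported here.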

Additional observations from a re-analysis of the deposited data

How the results depend on the processing

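The counts of 1681 genes higher and 894 lower came to 767 higher with median centring, 1117 higher with quantile normalization and 1071 higher without both libraries numbered 2, and the other alternatives for all libraries, including the replicate block (1924 and 1031), moved them by less than 1.5 times. With single libraries left out, the higher count ranged from 590 to 1600 and the lower from 502 to 823, both lowest without iDKO 3. Of 138 named genes that passed, 138 kept their call under both other pseudocounts and the robust prior and 137 with the replicate block (Ctse excepted), 132 when centred, 135 under quantile normalization, and 128 to 136 with 1 library left out. Without the filter 135 did, the calls of Cftr, Ctse and Hes1 ending, and without limma's trend 136, those of Hes1 and Tmprss4 ending. Of 129 above the stricter filter, 129 kept it. In none of these alternatives did a gene that passed change direction. Alpi and Smad4 did not pass and lay near 0. Alpi turned to -0.16 centred, -0.14 without control 3, -0.04 without iDKO 1 and -0.02 without iDKO 2 (range -0.14 to 0.12 over single libraries left out), and Smad4 to 0.03 without control 2, 0.04 without iDKO 1 (range -0.22 to 0.04) and 0.08 without both libraries numbered 2. The cause was not tested. With 3 libraries a group and FPKM values alone, changes of low genes are the least certain, controls 1 and 2 were the shallowest, and animals and batches behind the libraries are not given in the labels.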
